A study of Mus musculus with 2 samples.

Results

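The Tex genes are mouse genes named for being expressed in the testis, and they share a naming history rather than a protein family. The members were chosen by name, as the rows of the authors' deposited table whose gene ID maps in RefSeq to a protein-coding symbol made of Tex and a number. Measured values were not part of that rule, but it was set with earlier results of these data known. There were 34 such genes among 44002 rows, and 33 of them stood at 1 CPM (reads per 1000000 reads of the library) or more in at least 1 library. The remaining member, Tex28 on the X chromosome, is listed at 0 in both libraries, where values under 1 CPM are written as 0. By germ cell stage, 7 members belong to spermatogonia and spermatocytes, 9 to spermatids and sperm and 5 are expressed in many tissues, while 13 were left without a stage. Lettered symbols such as Tex13a fall outside the rule.

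The libraries came from whole testes of balb/c mice at post natal day 45, an age at which spermatogenesis has reached mature spermatids. The control library carries no treatment label and the BPA library is labelled with exposure to bisphenol A, a plastics monomer with weak estrogen-like activity; dose, route and duration were absent from the labels read for this work. Within each group the material of 3 samples was mixed, so each group has 1 library, no spread within a group was measured, and no test between the conditions was possible. In whole tissue, fewer cells of a type and less RNA per cell cannot be told apart.

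Male germ cells divide as spermatogonia, pair and recombine their chromosomes as spermatocytes, and then reshape into sperm as haploid spermatids. Several Tex proteins act at set points of that path: TEX11 and TEX12 in the pairing and crossing over of chromosomes, TEX14 in the cytoplasmic bridges that join sister germ cells, TEX15 and TEX19.1 in guarding the germ line against transposons, and a group of others inside the sperm tail. TEX22 is a testis protein of the acrosomal region, the cap that covers the sperm nucleus. A few Tex genes, such as Tex2, Tex10, Tex261 and Tex264, have housekeeping roles in membranes, the nucleolus and the endoplasmic reticulum outside the testis too.

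Tex22 differed between the libraries and the other 32 measured Tex genes lay within 2-fold. Tex22 stood at 10.7 CPM in control (446 reads) and at 72.8 CPM with BPA (3304 reads). The BPA library was the higher by 6.82-fold, and the exact Clopper-Pearson 95% interval ran from 6.18 to 7.55. Such intervals cover counting error in these reads only, and not the spread between animals, which was not measured. Where 2 values stand side by side as one against the other, the BPA library comes first. A gene counts here as 2-fold apart when its log2 ratio of BPA over control, with 0.1 CPM added to each value, is 1 or more in size. Of the 33 members at 1 CPM or more, 1 was 2-fold higher, 0 were lower and 32 lay within; over all 19389 genes at that floor, 3.28% were 2-fold apart, 1.32% higher and 1.95% lower. Among protein-coding genes alone, a background chosen after the data were seen, 2.35% were 2-fold apart. The share of 1 in 33 members is near that of all genes, but that background is not matched for level. By mean CPM, 3 members lay under 10, 20 from 10 to 100, Tex22 included, and 10 at 100 or more. Of all genes in these ranges, 94.0%, 99.1% and 99.9% lay within 2-fold, in the same order. Most members thus stood at levels where a smaller share of genes was 2-fold apart. Whether 1 member apart exceeds a share matched for level was not tested.

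The authors' deposited table calls 1 of the members, Tex22, with a log2 fold change of 2.77 and a q-value of 1.71e-09. That table calls 0.0956% of the 29279 genes that carry a fold change in it. In the authors' deposited table the q-value of the other members was 0.99996 for all 33, and Tex2 had the smallest p-value among them, 0.0216. The test behind these values, with 1 library per group, was not named in the labels.

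**Figure D1:**
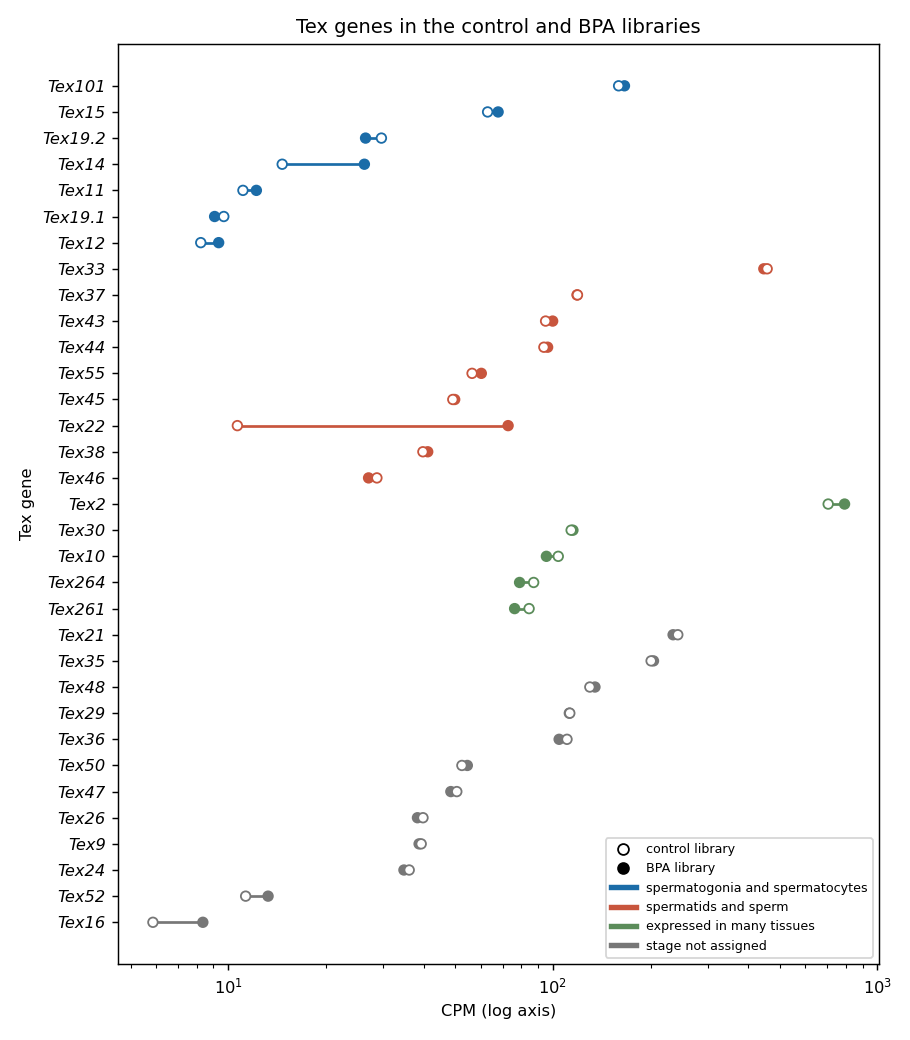
Each row is 1 Tex gene at 1 CPM or more, grouped by stage (colour); the open point is its CPM in the control library, the filled point its CPM in the BPA library, on a log axis. Tex22 runs from 10.7 to 72.8 CPM and Tex14 from 14.7 to 26.3 CPM, and the points of most other genes nearly touch.

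The rest of the Tex genes were close to equal in both libraries. Their fold of BPA over control ran from 0.894 for Tex19.2 to 1.79 for Tex14, and 29 of the 32 lay within 15% of 1. The median log2 ratio was 0.02 over all 33 members, 0.02 without Tex22, and 0.00406 over all genes at the floor. Above 0 lay 18 members and below it 15. The counting interval excluded 1 for 16 members, 9 above and 7 below, against 43.1% of all genes.

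Within its range of expression the ratio of Tex22 was uncommon. Of the 7578 genes with a mean from 10 to 100 CPM, 0.858% were 2-fold apart, and 7 others had a log2 ratio as high as that of Tex22 (2.76). Over all 19389 genes, 25 reached that ratio, Tex22 included. Expressed per kilobase of exon, Tex22 ranked 25 among the 33 members in control (8.40 CPM per kb) and 12 with BPA (57.3 CPM per kb). It took 0.316% of the summed CPM of the members in the control library and 2.07% in the BPA library.

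**Figure D2:**
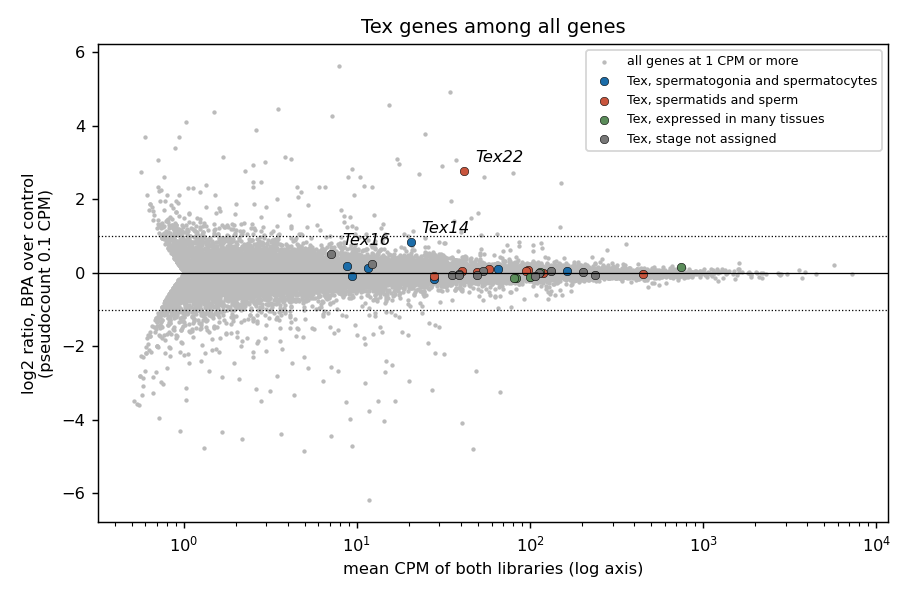
Each grey point is 1 of the 19389 genes at the floor, by the mean CPM of both libraries (log axis) and the log2 ratio of BPA over control; coloured points are Tex genes and dotted lines mark 2-fold. Tex22 lies at 2.76, Tex14 at 0.84 and Tex16 at 0.50, and the remaining members lie along 0.

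Tex22 (gene ID 75671) lies on chromosome 12 of GRCm38, from 113074463 to 113088917 on the plus strand, and its GENCODE exons form 3 blocks of 1270 bases in all. No exon of another annotated gene overlaps them, and 0% of the 50-base words of its transcripts occur in transcripts of genes at other loci. Its nearest neighbour, the trafficking gene Pacs2, ends 61 bases before it and stood at 208 CPM with BPA and 194 CPM in control, 1.07-fold higher (1.04 to 1.11). The next measured gene downstream is Mta1, a subunit of the NuRD chromatin remodelling complex, which starts 9330 bases after the end of Tex22. Mta1 stood at 31.0 CPM with BPA and 3.92 CPM in control, 7.91-fold higher (6.72 to 9.35). Crip2, which encodes a LIM domain protein, lies 51318 bases away on the same side and was 4.46-fold higher (3.73 to 5.36), at 15.7 against 3.52 CPM. The run ended at Crip1, 63094 bases away, at 6.28 CPM with BPA and 6.41 CPM in control. Tex22, Mta1 and Crip2 were thus 3 genes in a row that were higher in the BPA library, between neighbours at nearly equal levels. The authors' deposited table calls Tex22 and Mta1 but not Crip2.

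Of 27 genes at the floor within 1 Mb of Tex22, 4 were 2-fold apart, 3 higher and 1 lower, against 3.28% of all genes. Besides Mta1 and Crip2 these were low genes: A530016L24Rik (68 reads with BPA and 13 in control, 4.82-fold higher, 2.64 to 9.51) and Pld4 (2 reads against 54, a fold of 0.0341, 0.00403 to 0.129). The lower value of each was written as 0 and was filled from the deposited fold change. Within 200 kb, 2 of 11 genes were 2-fold apart, which were Mta1 and Crip2. At the far side of the window the sperm surface genes Adam6a and Adam6b were 1.28-fold (1.20 to 1.37) and 1.23-fold (1.08 to 1.41) higher.

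**Figure D3:**
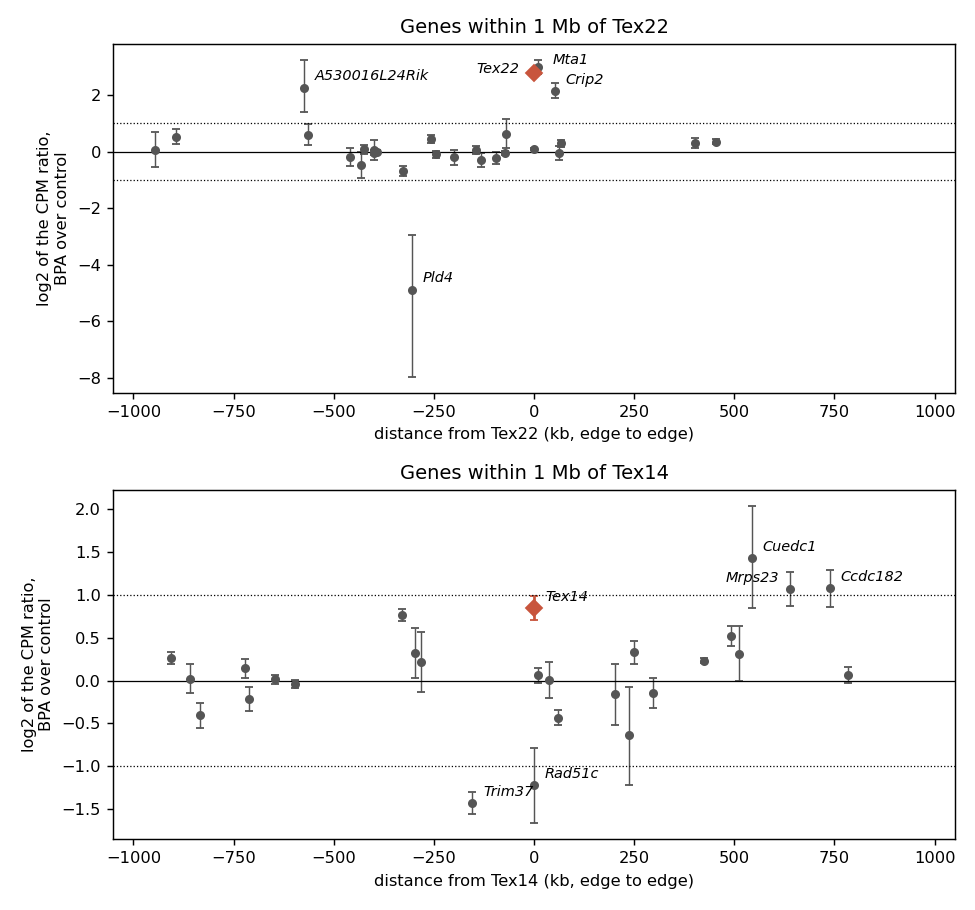
Genes at 1 CPM or more within 1 Mb of Tex22 (top) and of Tex14 (bottom), by distance in kb between gene edges and the log2 of the CPM ratio of BPA over control; the diamond is the Tex gene, bars are exact 95% counting intervals, and dotted lines mark 2-fold. Mta1 and Crip2 lie just downstream of Tex22 at 7.91-fold and 4.46-fold, and Rad51c and Trim37 lie below the lower line beside Tex14.

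The same count was made around every member: 23 of the 34 members had 0 neighbours 2-fold apart within 1 Mb, 5 had 1, 3 had 2 and 3 had 3 or more. Tex14 had the most, 5 of 26, and Tex28, itself listed at 0, had 3 of 44. Around Tex16, with the third largest ratio among the members, 0 of 7 neighbours were 2-fold apart. Summed over the members, 23 of 875 neighbours were 2-fold apart, a share below the 3.28% over all genes. In that sum a gene near more than 1 member counts each time.

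Promoter windows carry the sequence context of these loci. RefSeq windows of 300 bases (250 before to 50 after the start, GRCm38.p6) were at hand for 28 of the 34 members, in 33 windows; Tex11, Tex15, Tex22, Tex24, Tex43 and Tex55 had none. The window of Tex14 is shown because it covers the facing starts of 2 genes, Tex14 and Rad51c, that differed in opposite directions. The authors' deposited table calls neither of them. Between the RefSeq gene spans of Tex14 and of Rad51c, which is on the other strand, lie 58 bases. A Rad51c window shares 210 bases with the Tex14 window. The windows of Mta1 and Crip2 are shown because both genes were higher along with Tex22, and that of Tex12 because it holds 2 of the searched motifs. Crip2 has 2 windows in the table, of which the first is printed. Capitals mark a match, on either strand, to an E2F-type motif (GGCGGGAA) or an E-box (CACGTG). They lie at chr11:87404815-87405114 (plus strand, Tex14), chr12:113098028-113098327 (plus, Mta1), chr12:113139986-113140285 (plus, Crip2) and chr9:50561219-50561518 (minus, Tex12).
Tex14: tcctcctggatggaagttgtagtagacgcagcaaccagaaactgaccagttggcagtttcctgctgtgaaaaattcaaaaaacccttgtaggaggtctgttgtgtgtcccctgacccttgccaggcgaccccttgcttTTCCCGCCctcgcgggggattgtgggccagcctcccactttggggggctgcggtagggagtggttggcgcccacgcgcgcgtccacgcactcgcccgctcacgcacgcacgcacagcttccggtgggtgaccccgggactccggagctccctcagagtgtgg
Mta1: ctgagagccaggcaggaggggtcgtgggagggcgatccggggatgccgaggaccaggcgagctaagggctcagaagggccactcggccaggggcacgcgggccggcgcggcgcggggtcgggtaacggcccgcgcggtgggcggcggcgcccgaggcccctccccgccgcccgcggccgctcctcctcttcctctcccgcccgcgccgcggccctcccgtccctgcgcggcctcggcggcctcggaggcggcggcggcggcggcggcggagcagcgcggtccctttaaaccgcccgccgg
Crip2: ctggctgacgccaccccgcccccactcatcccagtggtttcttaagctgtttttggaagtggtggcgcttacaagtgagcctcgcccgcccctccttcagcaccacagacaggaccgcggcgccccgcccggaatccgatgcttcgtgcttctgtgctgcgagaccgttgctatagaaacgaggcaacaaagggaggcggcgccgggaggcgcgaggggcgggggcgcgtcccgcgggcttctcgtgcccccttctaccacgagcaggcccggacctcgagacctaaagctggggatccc
Tex12: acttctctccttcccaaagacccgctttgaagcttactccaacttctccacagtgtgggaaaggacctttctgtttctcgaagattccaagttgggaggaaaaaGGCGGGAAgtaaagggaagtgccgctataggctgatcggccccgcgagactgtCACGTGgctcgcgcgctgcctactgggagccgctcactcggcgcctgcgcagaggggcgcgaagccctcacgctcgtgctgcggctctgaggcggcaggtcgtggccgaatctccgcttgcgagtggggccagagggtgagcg

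In all, 4 motifs were searched on both strands, each counted by itself. The E2F-type motif was in 3 of the 33 Tex windows, those of Tex12, Tex14 and Tex26, and in 2.19% of all 32851 windows. The E-box was in the windows of Tex10, Tex12 and Tex36 and in 7.15% of all windows. TATAAA was in the windows of Tex10, Tex19.1 and Tex28 and in 13.6% of all. The cyclic AMP response element (TGACGTCA), a motif read by the spermatid regulator CREM, was in 0 Tex windows and in 1.79% of all; its letters were absent from these windows only. No motif of the 4 was in the window of Mta1 or in either window of Crip2. GC content was 81.0% in the Mta1 window and 66.3% and 73.7% in those of Crip2, against a median of 52.3% over the Tex windows and 52.7% over all windows.

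The 7 members of spermatogonia and spermatocytes had a median log2 ratio of 0.11, from -0.16 for Tex19.2 to 0.84 for Tex14, with 5 above 0 and 2 below. Tex14, which keeps the bridges between germ cells open, stood at 14.7 CPM in control (613 reads) and 26.3 CPM with BPA (1192 reads), 1.79-fold higher (1.62 to 1.98). That was the second largest difference among the members, and 1.07% of the genes with a mean from 10 to 100 CPM were as far apart in either direction. At 1.5-fold, 9.64% of all genes and 2 of the 33 members, Tex22 and Tex14, were apart.

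Tex14 (gene ID 83560) spans chromosome 11 from 87405013 to 87555823 on the plus strand in 32 exon blocks, with no overlapping exon and no shared word. Rad51c, a recombination gene whose start faces that of Tex14, differed in the opposite direction, with 3.37 CPM in control (141 reads) and 1.45 CPM with BPA (66 reads), 2.32-fold lower (1.72 to 3.16). Trim37, a ubiquitin ligase gene, was 2.68-fold lower (2.45 to 2.93), at 15.4 against 41.2 CPM. The authors' deposited table calls none of Tex14, Rad51c and Trim37. Of all genes with a mean under 10 CPM, the level of Rad51c, 94.0% lay within 2-fold. Farther downstream Cuedc1 was 2.68-fold higher (1.80 to 4.09), the mitochondrial ribosome gene Mrps23 2.08-fold higher (1.82 to 2.39) and Ccdc182 2.10-fold higher (1.82 to 2.44). Cuedc1 had 99 reads with BPA and 34 in control, where its value was written as 0 and filled from the deposited fold change. Septin4, the next gene after Tex14 and a component of the sperm annulus, was nearly equal, at 55.0 CPM with BPA and 52.8 CPM in control.

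The other members of this stage differed little. Tex11, the X-linked crossover gene, stood at 12.2 CPM with BPA and 11.1 CPM in control, 1.10-fold (0.970 to 1.25). Tex12, of the central element of the synaptonemal complex, stood at 9.34 and 8.23 CPM, 1.14-fold (0.983 to 1.31). Both intervals held 1, so neither difference was detectable at this depth. Tex15 stood at 67.8 against 63.0 CPM, 1.08-fold (1.02 to 1.14). Tex101, a membrane-anchored glycoprotein needed for sperm fertility, stood at 166 against 159 CPM, 1.04-fold (1.01 to 1.08).

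The paralogs Tex19.1 and Tex19.2 both lay below 0. Tex19.1 stood at 9.08 CPM with BPA and 9.69 CPM in control, 0.937-fold (0.815 to 1.08), and Tex19.2 at 26.5 and 29.6 CPM, 0.894-fold (0.825 to 0.968). They share 2.67% and 2.50% of their 50-base words with each other, so a small part of their reads is uncertain. Their promoter windows have 49.6% identical columns over a global alignment of 351, gaps included. Unrelated windows were not aligned in the same way, so this share cannot be read as similarity.

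Among the 9 members of spermatids and sperm, Tex22 stood alone. The other 8 ran from a log2 ratio of -0.08 for Tex46 to 0.09 for Tex55, with a median of 0.03, and their summed CPM was 939.9 with BPA and 939.3 in control. Tex33, a protein of the sperm flagellum, was the most abundant per length, at 360 CPM per kb with BPA and 368 CPM per kb in control. Its fold was 0.977 (0.958 to 0.996). Tex37, Tex43 and Tex45 encode proteins inside the doublet microtubules of the sperm tail. Tex37 stood at 118.7 against 119.1 CPM, a fold of 0.997 (0.959 to 1.04). Tex43, on chromosome 18, stood at 99.9 against 94.996 CPM, a fold of 1.05 (1.01 to 1.10), and Tex45 at 49.8 against 49.2 CPM (1.01, 0.954 to 1.08). The 3 tail genes were close to equal in both libraries.

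The remaining spermatid genes were as close. Tex38, which partners the palmitoyltransferase ZDHHC19, stood at 41.2 CPM with BPA and 39.8 CPM in control, 1.03-fold (0.968 to 1.11). Tex44, a sperm protein gene, stood at 96.4 and 93.8 CPM, 1.03-fold (0.983 to 1.07). Tex46, of the sperm head, stood at 27.1 and 28.7 CPM, 0.943-fold (0.870 to 1.02), and Tex55, which binds protein kinase A in sperm, at 60.2 and 56.4 CPM, 1.07-fold (1.01 to 1.13). The interval held 1 for Tex38, Tex44 and Tex46.

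**Figure D4:**
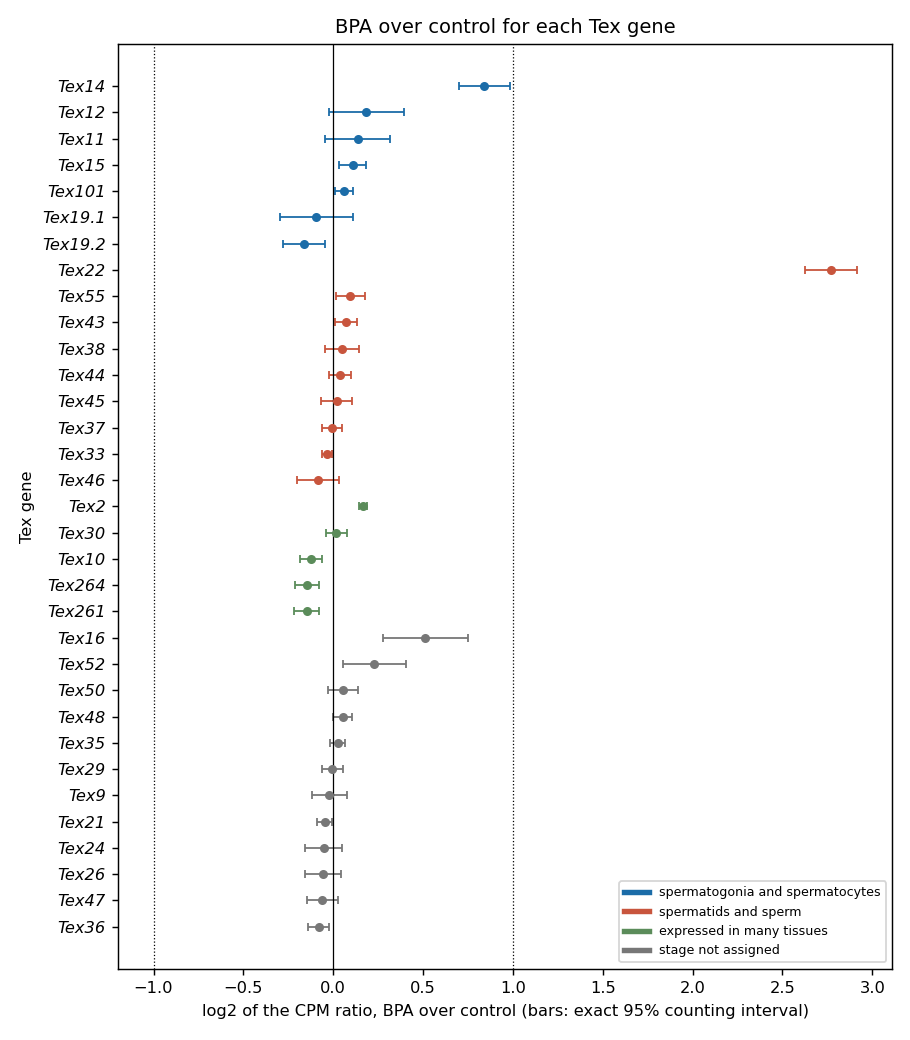
The log2 of the CPM ratio, BPA over control, for each Tex gene at the floor, grouped by stage (colour), with exact 95% counting intervals as bars and dotted lines at 2-fold. Tex22 lies beyond the upper line with an interval of 6.18 to 7.55-fold, the interval of Tex14 (1.62 to 1.98-fold) ends short of it, and the widest of the other intervals belong to the genes with the fewest reads.

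Of the 5 members expressed in many tissues, 2 lay above 0 and 3 below. Tex2, a lipid-binding protein of the endoplasmic reticulum, stood at 792 CPM with BPA (35939 reads) and 705 CPM in control (29473 reads), 1.12-fold higher (1.11 to 1.14). Of genes that averaged 100 CPM or above, 8.16% were as far apart. Tex10, of the nucleolar complex that processes ribosomal RNA, stood at 95.5 against 103.9 CPM (0.919-fold, 0.881 to 0.959). Tex264, a receptor for autophagy of the endoplasmic reticulum, stood at 79.0 against 87.3 CPM (0.905-fold, 0.864 to 0.948), and Tex261, a membrane protein of the early secretory pathway, at 76.2 against 84.5 CPM (0.902-fold, 0.861 to 0.946). Tex30 stood at 115 against 114 CPM (1.01-fold, 0.974 to 1.05). Exons of Tex10 overlap those of Invs on the other strand, and the library protocol describes no strand marking. Exons of Tex30 overlap those of Gm29247 on its own strand. Part of the reads of both genes is therefore uncertain.

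The 12 measured members without a stage had a median log2 ratio of -0.01. Tex16, an X-linked gene, differed most, at 8.35 CPM with BPA (379 reads) and 5.86 CPM in control (245 reads), 1.43-fold higher (1.21 to 1.68). Of genes with a mean under 10 CPM, 23.2% were as far apart, so a difference of this size was common at this level. Tex52 stood at 13.3 against 11.3 CPM, 1.17-fold (1.04 to 1.33). The rest, Tex9, Tex21, Tex24, Tex26, Tex29, Tex35, Tex36, Tex47, Tex48 and Tex50, ran from 0.946-fold for Tex36 (0.908 to 0.985) to 1.04-fold for Tex50 (0.981 to 1.10). Exons of Tex9, Tex16 and Tex52 overlap those of another gene, and 32.7% of the words of Tex24 recur elsewhere, which leaves the reads of these 4 genes uncertain.

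Per kilobase of exon, the mean level of the members over both libraries spanned from 1.60 CPM per kb for Tex16 to 364 CPM per kb for Tex33. Below Tex33 came Tex48 (192), Tex35 (185), Tex37 (146) and Tex2 (134), and the lowest after Tex16 were Tex11 (3.22), Tex14 (4.08) and Tex9 (4.43). Of the 7 genes of spermatogonia and spermatocytes, Tex101 ranked 8 of 33 and Tex19.2 24, with the other 5 below them. Of the sperm tail genes, Tex33 ranked 1, Tex37 4, Tex43 10 and Tex45 18. Neighbours in the order such as Tex48 and Tex35, or Tex101 (98.3) and Tex21 (98.4), lie closer together than the difference between the libraries for 1 of the pair. Lengths are the union of all annotated exons, which lowers the value of genes with many isoforms.

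Genes that work with the Tex proteins, from lists drawn up by their known roles, were within 2-fold, with 1 exception. Over all genes 3.28% were 2-fold apart, and 0.858% of those with a mean from 10 to 100 CPM, so lists of this size with 0 or 1 gene apart do not differ visibly from the background. Counting measured genes only, 0 of 11 partners of TEX11 in crossover formation were 2-fold apart. Neither were any of 9 partners of TEX14 in the bridge or of 5 genes listed with TEX38, most of them palmitoyltransferase genes. The same held for 6 partners of TEX12, 9 of TEX15 and TEX19.1 in the silencing of retrotransposons, 17 of TEX101 and 7 genes beside TEX264 in autophagy of the endoplasmic reticulum. It also held for 22 genes of proteins inside the doublet microtubules, of 30 listed. Median log2 ratios of these lists lay between -0.05 and 0.10. In the TEX14 list Anln and Cep55, both of the cell division machinery, had the largest ratios, 0.18 each.

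The exception was in the TEX10 list, where 1 of 6 was lower: Pelp1, the scaffold of the complex that TEX10 joins, stood at 1.98 CPM with BPA (90 reads) and 12.1 CPM in control (507 reads), 6.12-fold lower (4.88 to 7.74). The other 5 genes of that list lay within 2-fold, with Las1l, a ribonuclease subunit gene, at a log2 ratio of 0.29 and Nol9, a kinase gene, at 0.13. In the remaining lists the leading ratios were those of Msh5 (-0.20) and Ccnb1ip1 (-0.19) with TEX11, Sycp3 (-0.17) and Syce3 (0.13) with TEX12, Spocd1 (-0.22) and Tdrd9 (-0.13) with TEX15 and TEX19.1, and Adam6a (0.36) and Adam6b (0.30) with TEX101. Vcp (0.40) and Ccpg1 (0.13) led beside TEX264, Dusp21 (0.18) and Ribc2 (-0.16) among the tail proteins, and Zdhhc25 (0.12) and Zdhhc7 (0.08) with TEX38.

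The listed values correspond to 45162887 reads with BPA and 41711330 in control. Markers of germ cells were present. Of these, 0 of 17 spermatogonial, 0 of 20 spermatocyte, 0 of 18 round spermatid and 0 of 18 elongating spermatid markers were 2-fold apart. Over all genes 3.28% were apart, but 0.858% of those with a mean from 10 to 100 CPM. At a mean of 100 CPM or more, 99.9% of all genes lay within 2-fold. Counts of 0 in these lists thus do not differ visibly from the background. The median log2 ratios of the germ cell lists were 0.07, 0.02, -0.06 and 0.03, in the same order. Above 0 lay 12 of the spermatogonial, 12 of the spermatocyte, 5 of the round spermatid and 12 of the elongating spermatid markers. The counting interval lay below 1 for 9 round spermatid markers and above it for 2, and for elongating spermatids it lay above 1 for 10 and below it for 4. Of the somatic lists, 9 of 13 adipocyte markers were 2-fold lower in the BPA library. The 13 summed to 67.3 against 171 CPM, with Fabp4 at 2.07 against 24.4 CPM. The other 4 lay within 2-fold: Adipoq (15.4 against 17.2 CPM), Plin1 (4.47 against 4.88), Cd36 (19.8 against 22.3) and Pparg (2.47 against 2.08). Of 15 Sertoli cell markers 14 lay above 0 (median 0.20), and Rhox8 was lower. Of 10 Leydig cell markers 0 and of 9 macrophage markers 1, Trem2, were 2-fold apart. The part of these differences in any Tex value was not tested.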

How the data were processed

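Poly(A) RNA of whole testis was sequenced in 1 control and 1 BPA library, each mixed from 3 samples. Per the submitters' processing notes, HISAT2 2.0.4, HTSeq 0.6.1 and build mm10 were used; the annotation, strand setting, scaling and test are not named there. The deposited columns are headed as read counts but hold CPM: they sum to 995266 (BPA) and 997834 (control), and values under 1 are written as 0. The authors also deposited log2 fold changes with p-values and q-values. Values above 0 are whole multiples of 0.0220 CPM (BPA) and 0.0239 CPM (control) for 100% of values within 0.01 read, taken as 1 read; 1404 values written as 0 were filled from the deposited log2 fold change, none of them a Tex gene. No count model was fitted, because each group has 1 library.

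Of 41571 numeric IDs, 40269 matched RefSeq (GRCm38.p6). Exons, overlaps and 50-base words came from GENCODE M21. Python 3.11.15, pandas 2.3.3 and scipy 1.17.1 were used. The size rule and intervals were run on reads simulated with counting error only. The intervals assume that same error, so the run does not cover spread between animals. Alternatives changed the scaling, floor, pseudocount, threshold, window and handling of zeros. Stages, partner lists, marker lists and motifs were written from background knowledge, and they, the printed windows and the members were chosen with earlier results of these data known. All members could be named; of other genes, those 2-fold apart within 1 Mb of Tex22, and in partner lists those 2-fold apart or else the 2 largest ratios. Genes near Tex14, Pacs2, Crip1, the marker genes and Nol9 were named after their values were seen.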

Additional observations from a re-analysis of the deposited data

How the results depend on the processing

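Tex22 kept its direction and its place beyond 2-fold under every alternative run on it, with a log2 ratio from 2.66 (pseudocount of 1 CPM) to 2.77 (pseudocount of 0.01 CPM), and the median of the members stayed between 0.01 and 0.02. Rescaling by the median ratio or the upper quartile shifted log2 ratios by -0.00425 and -0.00486. The count of 1 member 2-fold apart became 2 at 1.5-fold, with Tex14, and 0 without Tex22, as the setting itself fixes. The 635 genes 2-fold apart became 183 with a floor of 4 CPM, 412 with the floor on the mean of both libraries, 205 with a pseudocount of 1 CPM, 1623 with listed zeros as 0, 1870 at 1.5-fold, 262 when the nearer bound of the interval had to reach 2-fold and 342 among protein-coding genes only, the last chosen after seeing the data. The 4 neighbours of Tex22 became 2 with either other floor or a window of 200 kb, and 7 at 1.5-fold; the lists held 9 to 18 genes 2-fold apart (1.5-fold for the last), against 12. Beyond what each setting removes or admits, the cause was not tested. No paired analysis was possible because each group has 1 library. Depth limits Tex12, Tex11, Tex19.1 and Tex16 most, with 245 to 554 reads per library.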

Other observations

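RefSeq also lists a Tex number among the older names of 18 genes that now carry other symbols, Tex13b included. Of these, 17 stood at the floor and 0 were 2-fold apart, with a median log2 ratio of -0.04 and 6 above 0. Lin28a (older name Tex17), an RNA-binding protein of undifferentiated spermatogonia, differed most, at 6.55 CPM with BPA (297 reads) and 4.19 CPM in control (175 reads), 1.56-fold higher (1.29 to 1.90). Sall4 (Tex20), a transcription factor of the same cells, stood at 4.01 against 4.09 CPM, with 1 inside its interval (0.791 to 1.22). Capza3 (Tex8), the actin capping subunit of sperm, stood at 176 against 147 CPM, 1.20-fold higher (1.16 to 1.24), and Catsperz (Tex40), of the sperm calcium channel, at 113 against 121 CPM, 1.07-fold lower (1.03 to 1.11). Morf4l1 (Tex189), a chromatin reader, stood at 932 against 962 CPM.

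Among lettered Tex13 genes, Tex13a, Tex13c1 and Tex13c3 lay at log2 ratios of 0.11, 0.12 and 0.13. Tex13d stood at 3.66 CPM with BPA and 5.07 CPM in control, 1.39-fold lower (1.13 to 1.71), and Tex13b is listed at 0 in both libraries. Tex13 symbols and older names were looked at after the data were seen.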
